A study of Mus musculus with 30 samples.

Results

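Colonic CD90+ fibroblasts (FB) and colonic PDGFRα hi FB are sorted stromal populations of the mouse large intestine, named for the surface proteins CD90 (encoded by *Thy1*) and PDGFRα (*Pdgfra*). The comparison takes 6 of the 30 RNA sequencing libraries of the series, chosen by their sample labels: 3 of CD90+ FB against 3 of PDGFRα hi FB, out of 10 populations with 3 replicates each. Untreated C57BL6/Nrj mice, 8 to 10 weeks old and of both sexes, gave the cells, and the small and large intestines of 3 individual mice were sorted. The muscle layer was stripped and the epithelium removed, and dead, Lineage, CD31+, BP3+, EpCAM+ and NCAM hi cells were gated out. Colonic CD90+ FB were then sorted as CD90+ cells that were also CD34+, PDPN hi and ESAM-1-, and colonic PDGFRα hi FB as PDPN+ cells that were CD34- and ESAM-1-. By these labels the colonic gates separated the populations on CD34, podoplanin and CD90 and did not use PDGFRα. Small intestinal CD34+ FB (labelled as Igfbp5+ and CD81+ FB; CD34+, PDGFRα int, ESAM-1-) and small intestinal PDGFRα hi FB (PDGFRα hi, CD34-, ESAM-1-), 3 libraries of each, gave the nearest contrast in libraries that the colonic comparison does not use. All 12 libraries came from whole transcriptome amplification of sorted cells, and their sequencing libraries were made with an Ovation Ultralow kit.

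Total estimated counts were 19096945, 15840424 and 14456220 in CD90+ FB replicates 1, 2 and 3, and 7248567, 6865683 and 6986681 in PDGFRα hi FB replicates 1, 2 and 3. Every CD90+ FB library was thus deeper than every PDGFRα hi FB library, and depth and population cannot be told apart in this design. With the CD90+ FB libraries thinned to the depth of the PDGFRα hi FB libraries, 733 genes passed the test below, and 706 of them were among the 730 that passed at full depth. Levels are given as CPM, which scales counts to library size, in the order of replicates 1, 2 and 3. A log2 fold change is positive where a gene was higher in CD90+ FB. It is given with a standard error, taken as its size divided by the square root of the F statistic of its test. Its range with 1 library left out is added where that moved the fold by over 1.5 times.

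Fibroblasts of the intestinal lamina propria lay down the matrix under the epithelium and secrete factors that keep stem cells at the crypt base and let their progeny mature toward the surface. Fibroblasts with much PDGFRα, among them the cells called telocytes, touch the epithelial basement membrane and are known as a source of bone morphogenetic proteins (BMPs), which promote maturation, and of non-canonical Wnt ligands. CD34+ fibroblasts belong to the stroma of the stem cell niche and are known for BMP antagonists such as *Grem1* and for factors that sustain canonical Wnt signaling.

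The comparison asks in which genes the colonic populations differ. Of 15071 genes tested, 730 were called (4.84%), which took an adjusted p under 0.05 together with a log2 fold change beyond 1.5 in size. Of these, 345 genes (2.29%) were higher in CD90+ FB, among them the BMP antagonist *Grem1*, the Wnt antagonist *Sfrp1*, elastin, complement genes such as *C3* and the chemokine *Ccl11*. The other 385 genes (2.55%) were higher in PDGFRα hi FB, among them *Bmp2*, *Bmp3*, *Bmp5* and *Bmp7*, *Wnt5a*, *Nrg1*, contractile genes and chains of type IV collagen. For each of the 730 called genes the 3 libraries of the populations did not overlap, as was so for 3624 of all 15071 genes (24.0%). The median log2 fold change was 0.01 over all genes tested, and the median absolute value was 3.19 among the called genes higher in CD90+ FB and 2.80 among those higher in PDGFRα hi FB. An exact rank test of 3 libraries against 3 cannot go below p = 0.10, so all calls rest on the model fitted across genes. Its p-values measure the spread between libraries, part of which may be technical. When all 15 colonic libraries were fitted together, which changes the filter, the scaling and the spread at once, 279 genes were called, 276 of them among the 730, and genes whose call ended there are named as such below. Counts for lists of genes are those of edgeR, and DESeq2, which called 988 genes in all, called at most 1 more in a list unless said. The share called in each list is to be read beside the 4.84% called of all genes tested.

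The populations were first checked against the genes that name them. *Thy1* (chr9:44043384-44048579), which encodes CD90, stood at 255, 175 and 159 CPM in CD90+ FB and 2.45, 0 and 2.31 CPM in PDGFRα hi FB (log2 fold change 6.91 ± 0.63, adjusted p = 3.0e-05). All 3 CD90+ FB libraries were far above all 3 PDGFRα hi FB libraries, 1 of which had no *Thy1* count. *Cd34* (chr1:194938819-194961279), the sialomucin that the gates used, was at 613, 626 and 483 CPM in CD90+ FB and 31.7, 36.2 and 33.2 CPM in PDGFRα hi FB (4.05 ± 0.20). *Pdgfra* (chr5:75152292-75198215), the receptor that the colonic gates did not use, was at 547, 799.6 and 616 CPM in CD90+ FB and 2387, 2398 and 2545 CPM in PDGFRα hi FB (−1.94 ± 0.18, adjusted p = 3.7e-05). The receptor was thus present in both populations and higher in PDGFRα hi FB, with the PDGFRα hi FB libraries close together and none of them overlapping the CD90+ FB. *Pdpn*, which encodes the podoplanin of both gates, was at 58.9, 58.4 and 64.5 CPM in CD90+ FB and 48.7, 53.8 and 67.2 CPM in PDGFRα hi FB and was not called (0.06). Those libraries overlapped, although of the compared populations the labels name PDPN hi cells for the CD90+ FB alone.

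The study names 5 genes or their proteins in CD90+ FB: *Thy1*, *Cd34*, *Pdpn*, *Pparg* and *Grem1*. It gives CD34, PDPN and *Grem1* for other colonic FB as well. Of the 5 genes, the first 3 encode proteins of the gates, so that the sort itself sets *Thy1* and *Cd34* apart. The other 2 were called, higher in CD90+ FB. *Pparg* (chr6:115360951-115490399), the nuclear receptor that drives fat cell formation, was at 44.5, 85.0 and 36.9 CPM in CD90+ FB and 5.39, 1.15 and 5.29 CPM in PDGFRα hi FB (3.78 ± 0.57). *Grem1* (chr2:113746164-113758646), a secreted trap for BMP2 and BMP4, was at 185, 509 and 486 CPM in CD90+ FB and 25.1, 3.70 and 10.3 CPM in PDGFRα hi FB (4.88 ± 0.61; 4.45 to 5.78 without 1 library). Both genes separated the populations, with *Grem1* spread widely within each of them and *Pparg* highest in CD90+ FB replicate 2. Among 10 genes known for PDGFRα hi cells, 8 were called, each higher in PDGFRα hi FB (median −3.30), *Wnt4* and *Wnt5b* (*Wnt5b* −0.85) not being called. *Sox6* (chr7:115470872-116038796), a transcription factor of the SoxD group, was at 595, 696 and 524 CPM in PDGFRα hi FB and 4.49, 1.21 and 4.2 CPM in CD90+ FB (−7.55 ± 0.43, adjusted p = 1.4e-06). *F3* (chr3:121723537-121735048), which encodes tissue factor, the starter of the clotting cascade, was at 258, 269.7 and 237 CPM in PDGFRα hi FB and 13.9, 22.4 and 12.3 CPM in CD90+ FB (−4.01 ± 0.27). *Foxl1* (chr8:121127940-121130644), the forkhead factor of subepithelial telocytes, was at 54.6, 50.8 and 70.7 CPM in PDGFRα hi FB and 7.0, 11.9 and 8.20 CPM in CD90+ FB (−2.74 ± 0.34), and its call ended in the fit of all 15 colonic libraries. For *Sox6*, *F3* and *Foxl1* alike, the lowest PDGFRα hi FB library lay well above the highest CD90+ FB library.

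Genes of other cells that a gate could admit were read in the same way. Of 9 epithelial markers 3 passed the filter on low counts and 0 were called by edgeR (1 at an unadjusted p under 0.05) or by DESeq2, which gave no p for *Muc2*. Their sum was 19.8, 9.91 and 3.05 CPM in CD90+ FB and 11.1, 5.1 and 120.4 CPM in PDGFRα hi FB. The high value of PDGFRα hi FB replicate 3 was carried by *Muc2*, the goblet cell mucin, at 0.122, 0 and 118 CPM in PDGFRα hi FB and 0.520, 1.63 and 0 CPM in CD90+ FB (called without PDGFRα hi FB replicate 2 alone), while *Epcam* and *Krt8* had no count in any of the 6 libraries. Of 7 pericyte markers 4 were tested, and 1, *Cspg4*, was called, higher in PDGFRα hi FB (153, 71.3 and 145 CPM in PDGFRα hi FB and 38.0, 33.2 and 33.9 CPM in CD90+ FB, −1.85 ± 0.30). The pericyte sum was 124, 181 and 235 CPM in CD90+ FB and 213, 121 and 221 CPM in PDGFRα hi FB, against a mean of 39306.5 ± 9491 (SD, n = 3) in the sorted colonic pericytes. The most abundant gene of that sum was *Rgs5* in CD90+ FB and *Cspg4* in PDGFRα hi FB. *Rgs5* itself was at 70.7, 141 and 191 CPM in CD90+ FB and 53.0, 45.7 and 61.1 CPM in PDGFRα hi FB and was not called (1.3), except without CD90+ FB replicate 1 (1.63), and *Higd1b* had no count in the PDGFRα hi FB. The part of pericytes in the result was not tested.

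Markers of further cell types were read next. The 7 endothelial markers, led by *Pecam1*, summed to 58.7, 70.5 and 86.4 CPM in CD90+ FB and 63.1, 46.6 and 59.8 CPM in PDGFRα hi FB, and of 6 tested 0 were called by edgeR or DESeq2, 0 also at an unadjusted p under 0.05. The 8 immune markers, led by *Jchain*, summed to 11.8, 23.7 and 18.5 CPM in CD90+ FB and 8.20, 15.3 and 11.0 CPM in PDGFRα hi FB, with *Cd52* and *Cd3e* at 0 in the PDGFRα hi FB libraries. For 5 glial markers, led by *L1cam*, the sums were 12.8, 6.10 and 9.66 CPM in CD90+ FB and 16.5, 11.1 and 11.1 CPM in PDGFRα hi FB, with *Gfap* at 0 in the CD90+ FB. Of the 3 immune and 2 glial markers tested, 0 were called by edgeR or DESeq2 and 0 had an unadjusted p under 0.05. Outside these lists, *Cd300lb*, a receptor known from myeloid cells, was called, at 3.06, 11.6 and 4.07 CPM in PDGFRα hi FB and 0 in every CD90+ FB library. An immunoglobulin kappa segment was called higher in CD90+ FB but is uncertain, most of its 31-base words occurring in other genes. The call of *Cd300lb* ended in the fit of all 15 colonic libraries and without any 1 PDGFRα hi FB library. The 3 mesothelial markers summed to no more than 2.60 CPM in any of the 6 libraries, with *Msln* at 0 in all of them. *Ano1* (chr7:144588549-144751974), the chloride channel of interstitial cells of Cajal, was called, at 78.2, 76.9 and 81.4 CPM in PDGFRα hi FB and 0.520, 0.725 and 0.636 CPM in CD90+ FB (−7.0 ± 0.37). It was low in all 3 CD90+ FB libraries and even across the PDGFRα hi FB libraries, and it averaged 723 ± 132 CPM in colonic pericytes. The other gene of the list for interstitial cells of Cajal, *Kit*, did not pass the filter on low counts. *Ano1* and *Kit* summed to 78.4, 77.1 and 83.3 CPM in PDGFRα hi FB, so *Ano1* made up nearly all of that sum. *Ncam1*, whose product the sort excluded when high, was at 983, 1132 and 1027 CPM in CD90+ FB and 698, 596 and 792 CPM in PDGFRα hi FB and was not called (0.55). *Cd81*, which names another colonic population, was at 17.9, 12.1 and 64.1 CPM in CD90+ FB and 3.92, 6.38 and 15.6 CPM in PDGFRα hi FB and was not called by edgeR (1.83), but was called by DESeq2 and with pairing of the replicates. Its value was 0.76 without CD90+ FB replicate 3 and 2.57 without PDGFRα hi FB replicate 3. Of 4 CD81+ FB genes, 3 were tested, with 3 positive values, and 1 was called, higher in CD90+ FB (2 by DESeq2). The 4 genes summed to 31.5, 37.0 and 130 CPM in CD90+ FB and 5.39, 30.9 and 19.4 CPM in PDGFRα hi FB. *Fgfr2*, which names a further population, was at 324, 440.4 and 333 CPM in CD90+ FB and 112, 208 and 118 CPM in PDGFRα hi FB and was not called (1.28), except without PDGFRα hi FB replicate 2 (1.65). The parts of these cell types in the result were not tested.

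BMP ligands were called in both directions. Of 8 ligands tested, 4 were called higher in PDGFRα hi FB and 1 in CD90+ FB, with a median of −1.76. *Bmp7* (chr2:172868012-172940321) was at 673, 650.1 and 646 CPM in PDGFRα hi FB and 42.5, 49.3 and 46.9 CPM in CD90+ FB (−3.87 ± 0.19, adjusted p = 4.0e-07). *Bmp5* (chr9:75775364-75900310) was at 2409.7, 2622 and 2194 CPM in PDGFRα hi FB and 354, 495 and 387 CPM in CD90+ FB (−2.58 ± 0.19). *Bmp3* (chr5:98854415-98884396), which unlike most of the family restrains BMP signaling, was at 589, 769 and 607 CPM in PDGFRα hi FB and 30.7, 42.7 and 30.8 CPM in CD90+ FB (−4.28 ± 0.23). The PDGFRα hi FB libraries of each of these genes lay within a narrow band, and no CD90+ FB library came near it. *Bmp2* (chr2:133552159-133562885), a ligand that *Grem1* binds, was at 477, 507 and 546 CPM in PDGFRα hi FB and 43.9, 37.5 and 55.4 CPM in CD90+ FB (−3.52 ± 0.21). *Bmp6* (chr13:38345107-38500302), better known for iron control by the liver, went the other way, at 353, 262 and 199 CPM in CD90+ FB and 65.1, 76.8 and 75.3 CPM in PDGFRα hi FB (1.86 ± 0.23), and its call ended in the fit of all 15 colonic libraries. *Bmp4* (chr14:46383520-46390669) was at 1653, 1960.0 and 1651 CPM in CD90+ FB and 2098, 1959.5 and 2321 CPM in PDGFRα hi FB and was not called (−0.32), the highest CD90+ FB library being level with the lowest PDGFRα hi FB library.

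Per length of transcript, in TPM rescaled over the genes used here, *Bmp4* was the ligand with the highest level in both populations. It stood at 2182 ± 157 TPM in CD90+ FB and 2817 ± 251 TPM in PDGFRα hi FB (mean ± SD, n = 3). Next in the PDGFRα hi FB came *Bmp5* at 1312 ± 121 TPM, *Bmp7* at 378 ± 15 TPM and *Bmp2* at 299 ± 15.5 TPM. In the CD90+ FB, *Bmp6* at 230.5 ± 83.8 TPM and *Bmp5* at 214 ± 27.4 TPM followed *Bmp4*, while *Bmp2* and *Bmp7* stood at 25.2 ± 5.42 and 24.5 ± 0.190 TPM.

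BMP antagonists were divided. Of 10 tested, *Grem1* was higher in CD90+ FB and 3 were higher in PDGFRα hi FB (median −0.07). *Twsg1* (chr17:65921972-65951226), a BMP-binding protein that can help or hinder the ligand, was at 1648, 1691 and 2504 CPM in PDGFRα hi FB and 480.0, 583 and 568 CPM in CD90+ FB (−1.88 ± 0.20). *Nbl1* (chr4:139082284-139092993), a member of the DAN group of BMP traps, was at 382, 299 and 315 CPM in PDGFRα hi FB and 30.4, 42.5 and 8.84 CPM in CD90+ FB (−3.65 ± 0.45). Both were separated with room to spare, and the CD90+ FB replicate 3 had the lowest *Nbl1* level of the 6 libraries. *Fst* (chr13:114452290-114458951), which encodes follistatin, a trap for activins and some BMPs, was at 16.5, 15.8 and 7.87 CPM in PDGFRα hi FB and 0.0473, 0.544 and 0 CPM in CD90+ FB (−6.09 ± 1.08; −8.54 to −5.54 without 1 library). It was close to the floor in the CD90+ FB, and its call ended in the fit of all 15 colonic libraries. Of 13 BMP receptors and target genes tested, 0 were called by edgeR (median −0.33), 6 had an unadjusted p under 0.05, and DESeq2 called 3.

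**Figure D1:**
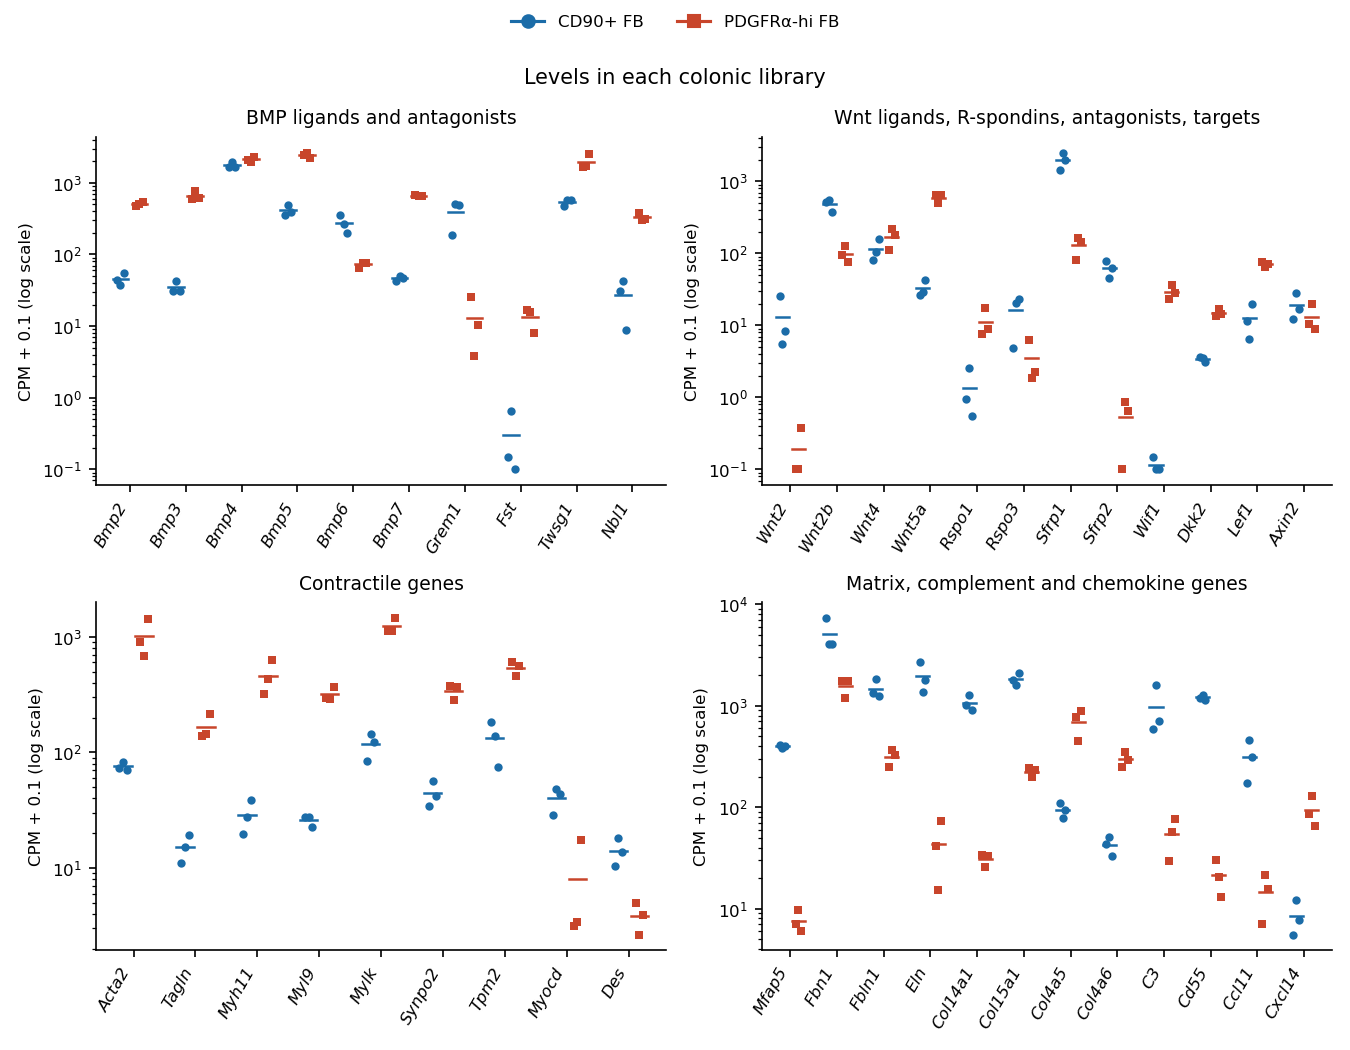
Level of each named gene in each colonic library, as CPM with 0.1 added on a log axis; circles are the 3 CD90+ FB libraries, squares the 3 PDGFRα hi FB libraries, and bars the mean of each population. *Bmp2*, *Bmp3*, *Bmp5*, *Bmp7*, *Wnt5a* and the contractile genes from *Acta2* to *Tpm2* sit higher in the PDGFRα hi FB, and *Grem1*, *Sfrp1*, *Eln*, *C3* and *Ccl11* higher in the CD90+ FB.

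Wnt ligands were called in both directions, 2 of 8 tested in each (median −0.47). *Wnt5a* (chr14:28504750-28527448), the main non-canonical ligand, was at 649, 494 and 638 CPM in PDGFRα hi FB and 26.5, 28.8 and 42.2 CPM in CD90+ FB (−4.23 ± 0.25, adjusted p = 1.4e-06). *Wnt2b* (chr3:104945272-104961921), a canonical ligand made by crypt-base stroma, was at 524, 548 and 379 CPM in CD90+ FB and 95.3, 127 and 75.3 CPM in PDGFRα hi FB (2.24 ± 0.24). Each of these was strong in 1 population and detectable in every library of the other. *Wnt2* (chr6:17988940-18030585), also canonical, was at 25.6, 5.38 and 8.26 CPM in CD90+ FB and 0, 0 and 0.271 CPM in PDGFRα hi FB, with CD90+ FB replicate 1 well above the others and no more than 2 counts in any PDGFRα hi FB library. *Wnt6*, also called, was at 1.1, 2.68 and 1.22 CPM in PDGFRα hi FB and 0, 0.0604 and 0 CPM in CD90+ FB, the latter no more than 1 count in a library, and its call ended in 5 of the 6 fits without 1 library and in the fit of all 15 colonic libraries. *Wnt4* (chr4:137277489-137299726) was at 80.4, 103 and 160.0 CPM in CD90+ FB and 112, 220.2 and 181 CPM in PDGFRα hi FB and was not called (−0.62). Its libraries overlapped, CD90+ FB replicate 3 lying above PDGFRα hi FB replicate 1.

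Secreted modulators of Wnt signaling held some of the steepest differences. *Sfrp1* (chr8:23411502-23449632), a soluble decoy that binds Wnt proteins, was at 1445, 2494 and 1987 CPM in CD90+ FB and 80.2, 165 and 145 CPM in PDGFRα hi FB (3.89 ± 0.30, adjusted p = 1.0e-05). *Sfrp2* (chr3:83766321-83774316), of the same family, was at 78.6, 45.5 and 62.7 CPM in CD90+ FB and 0, 0.765 and 0.543 CPM in PDGFRα hi FB (7.10 ± 0.65; 6.50 to 7.84 without 1 library). *Wif1* (chr10:121033960-121100650), another secreted Wnt binder, ran opposite at 23.1, 36.1 and 28 CPM in PDGFRα hi FB and 0.0473, 0 and 0 CPM in CD90+ FB, the latter being 1 count. The first 2 were higher in CD90+ FB and *Wif1* in PDGFRα hi FB, without overlap in any case. Leaving out any of the 3 PDGFRα hi FB libraries put *Wif1*, and leaving out any of the 3 CD90+ FB libraries put *Wnt2*, under the filter on low counts, so that neither was then tested. *Dkk2* (chr3:132085292-132180304), an antagonist that binds the co-receptor LRP6, was at 13.5, 16.7 and 14.2 CPM in PDGFRα hi FB and 3.59, 3.38 and 2.99 CPM in CD90+ FB (−2.19 ± 0.50). Its call was lost without CD90+ FB replicate 1 (−2.23), replicate 2 (−2.2), replicate 3 (−2.12), PDGFRα hi FB replicate 1 (−2.26) or replicate 3 (−2.23). Over the list of 9 Wnt antagonists tested, 2 genes were called in each direction (median 1.3).

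R-spondins amplify Wnt signals by sparing Wnt receptors from degradation, and 2 were tested. *Rspo3* was at 4.68, 20.4 and 22.9 CPM in CD90+ FB and 6.24, 1.79 and 2.17 CPM in PDGFRα hi FB and was not called by edgeR (2.19), while DESeq2 called it, as did edgeR without CD90+ FB replicate 1 (2.65; 1.84 to 2.97 without 1 library). Its libraries overlapped, and it averaged 1465 ± 2493 CPM in CD81+ FB (mean ± SD, n = 3), with an SD larger than the mean. *Rspo1* was at 7.47, 17.4 and 8.82 CPM in PDGFRα hi FB and 0.851, 2.48 and 0.445 CPM in CD90+ FB (−3.19 ± 0.79; −4.12 to −2.71 without 1 library), low in all 6 libraries. Its call was lost without CD90+ FB replicate 1 (−2.95), replicate 3 (−2.79), PDGFRα hi FB replicate 2 (−2.71) or replicate 3 (−3.34), and with length-scaled counts (−2.81). Among 7 Wnt target genes tested, *Lef1*, a partner of β-catenin on DNA, was the gene called, at 76.6, 64.4 and 71.8 CPM in PDGFRα hi FB and 11.3, 6.47 and 19.8 CPM in CD90+ FB (−2.54 ± 0.40). The universal target *Axin2* was at 12.2, 27.7 and 17 CPM in CD90+ FB and 10.4, 19.5 and 8.68 CPM in PDGFRα hi FB, with overlapping libraries and no call (0.52). In the fit of all 15 colonic libraries the calls of *Dkk2*, *Rspo1* and *Lef1* ended.

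Growth factors that act through receptor tyrosine kinases came next. *Nrg1*, the neuregulin ligand of ERBB3 and ERBB4, was at 354, 459.7 and 359 CPM in PDGFRα hi FB and 6.81, 14.3 and 8.58 CPM in CD90+ FB (−5.34 ± 0.32, adjusted p = 1.4e-06). It was the gene called among 9 ligands of the EGF family tested (median −0.91), and no library of 1 population came near the other. *Ereg*, which encodes epiregulin, was at 150.4, 165 and 196 CPM in PDGFRα hi FB and 74.3, 109 and 96.4 CPM in CD90+ FB and was not called (−0.91). Of 8 FGF ligands tested, *Fgf9* was called higher in PDGFRα hi FB and *Fgf10* higher in CD90+ FB (median 0.69). *Fgf9*, which acts on mesenchyme, was at 135, 239 and 164 CPM in PDGFRα hi FB and 8.75, 4.90 and 9.47 CPM in CD90+ FB (−4.58 ± 0.34), and *Fgf10*, which acts on epithelial FGFR2b, was at 109.6, 140.4 and 129.8 CPM in CD90+ FB and 28, 19.4 and 18.3 CPM in PDGFRα hi FB (2.49 ± 0.26). *Fgf7*, keratinocyte growth factor, was at 194, 119 and 159 CPM in PDGFRα hi FB and 81.7, 91.0 and 83.4 CPM in CD90+ FB and was not called (−0.92). The libraries did not overlap for any of these FGF genes. Of 5 FGF receptors tested, 0 were called by edgeR or DESeq2, and 2 had an unadjusted p under 0.05 (median 0.44).

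Other signaling families were read by list. Of 11 genes of the TGF-β and activin family tested, 3 were higher in CD90+ FB and 1 in PDGFRα hi FB (median 0.30). *Tgfbr3*, the co-receptor betaglycan, was at 797, 888 and 723 CPM in CD90+ FB and 179, 231 and 166 CPM in PDGFRα hi FB (2.02 ± 0.19), and *Ltbp4*, which stores latent TGF-β in the matrix, was at 3439, 3837 and 2663 CPM in CD90+ FB and 1106, 963 and 1194 CPM in PDGFRα hi FB (1.57 ± 0.18). Without CD90+ FB replicate 2 (1.45) the fold of *Ltbp4* fell under the threshold. *Inhba*, the subunit of activin A, ran the other way at 346, 236 and 472 CPM in PDGFRα hi FB and 65.1, 31.6 and 36.5 CPM in CD90+ FB (−3.02 ± 0.33). All libraries of each gene were on the side of their own population. Of 12 Hedgehog response genes tested, 6 had an unadjusted p under 0.05 and edgeR called *Foxl1* (median −0.15). DESeq2, and edgeR on thinned libraries, called 1 more, higher in CD90+ FB. *Ptch1*, receptor and target of the pathway, was at 2209, 2010.1 and 2837 CPM in PDGFRα hi FB and 857, 1180.3 and 1216 CPM in CD90+ FB (−1.15, not called), and the target *Gli1* at 103, 95.4 and 103 CPM in PDGFRα hi FB and 88.9, 99.96 and 88.5 CPM in CD90+ FB (−0.16, not called). *Foxf1*, a forkhead target of Hedgehog signals in gut mesenchyme, was at 211, 219 and 231 CPM in PDGFRα hi FB and 124, 119 and 97.1 CPM in CD90+ FB (−1.0, not called). *Ptch1* and *Foxf1* did not overlap between the populations and *Gli1* did.

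In the Notch list 1 of 10 genes tested was called (median 0.87): *Heyl*, a repressor that Notch induces, at 43.0, 41.9 and 48.1 CPM in CD90+ FB and 3.43, 4.98 and 8.01 CPM in PDGFRα hi FB (2.98 ± 0.41). Of 9 IGF genes tested, *Igfbp4*, which binds and restrains IGFs, was called at 579, 597 and 593 CPM in CD90+ FB and 91.5, 112 and 154 CPM in PDGFRα hi FB (2.27 ± 0.21; list median 0.92). Both were even across the CD90+ FB libraries and far lower in each PDGFRα hi FB library. Of 12 angiogenic factors tested, 1 was called in each direction (median −0.15). *Vegfa*, which drives blood vessel growth, was at 163, 191 and 232 CPM in PDGFRα hi FB and 72.0, 75.8 and 49.8 CPM in CD90+ FB (−1.61 ± 0.23), and *Vegfc*, which drives lymphatic growth, was at 59.8, 44.4 and 46.0 CPM in CD90+ FB and 15.8, 4.08 and 14.2 CPM in PDGFRα hi FB (2.1 ± 0.46). The fold of *Vegfa* fell under the threshold without CD90+ FB replicate 3 (−1.44) or PDGFRα hi FB replicate 3 (−1.47) and with length-scaled counts (−1.47), and the call of *Vegfc* ended without CD90+ FB replicate 1 (1.98). Neither was called in the fit of all 15 colonic libraries.

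Guidance cues, which steer axons, vessels and migrating cells, were called in both directions. Of 16 semaphorin and axon guidance genes tested, 6 were higher in CD90+ FB and 2 in PDGFRα hi FB (median 0.50). *Sema3c* was at 361, 309 and 365 CPM in CD90+ FB and 71.3, 48.0 and 101 CPM in PDGFRα hi FB (2.2 ± 0.26), and *Sema3b* at 31.4, 29.7 and 39.4 CPM in CD90+ FB and 0.367, 1.40 and 0.679 CPM in PDGFRα hi FB (5.3 ± 0.57; 4.95 to 5.97 without 1 library). *Nrp1*, the co-receptor of class 3 semaphorins and VEGF, was at 321, 382 and 369 CPM in CD90+ FB and 80.1, 85.3 and 92.7 CPM in PDGFRα hi FB (2.02 ± 0.19). *Sema3f*, which signals mainly through the sister receptor NRP2, ran against them at 157, 191 and 163 CPM in PDGFRα hi FB and 20.2, 7.92 and 11.6 CPM in CD90+ FB (−3.72 ± 0.34). The class 3 semaphorins were thus divided between the populations, *Sema3c* with the larger level in CD90+ FB and *Sema3f* in PDGFRα hi FB. *Slit3*, a ligand of ROBO receptors, was at 646, 755 and 596 CPM in CD90+ FB and 187, 80.0 and 109 CPM in PDGFRα hi FB (2.37 ± 0.28). *Ntn4*, a netrin that binds laminin, was at 42.6, 49.8 and 30.1 CPM in CD90+ FB and 0.980, 1.28 and 1.22 CPM in PDGFRα hi FB (5.09 ± 0.46). Each of the 6 genes kept its populations apart, and *Ntn4* and *Sema3b* were near 1 CPM in the PDGFRα hi FB. The netrin receptor *Unc5b* was at 77.3, 100.02 and 90.1 CPM in PDGFRα hi FB and 18.5, 16.3 and 14.5 CPM in CD90+ FB (−2.48 ± 0.26).

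Of 16 ephrins and Eph receptors tested, 3 were higher in CD90+ FB and 2 in PDGFRα hi FB (median 0.29). *Epha7*, a receptor of A-type ephrins, was at 91.8, 78.0 and 112 CPM in CD90+ FB and 2.69, 5.87 and 3.94 CPM in PDGFRα hi FB (4.45 ± 0.37). *Efnb2*, a ligand of the EphB receptors that position epithelial cells along the crypt, was at 349, 233 and 417 CPM in PDGFRα hi FB and 73.7, 44.7 and 44.4 CPM in CD90+ FB (−2.66 ± 0.28). The receptor and the ligand lay on opposite sides of the comparison with no overlapping library. In the fit of all 15 colonic libraries the calls of *Sema3b*, *Unc5b* and *Efnb2* ended.

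Contractile genes were mostly higher in PDGFRα hi FB. Of 15 tested, 9 were called higher in PDGFRα hi FB and 1 in CD90+ FB (7 and 1 with upper-quartile scaling, 9 and 2 by DESeq2), with a median of −1.98. *Acta2* (chr19:34241090-34255590), which encodes smooth muscle α-actin, was at 901, 685 and 1435 CPM in PDGFRα hi FB and 73.1, 82.6 and 70.5 CPM in CD90+ FB (−3.78 ± 0.27, adjusted p = 5.1e-06). *Myh11* (chr16:14194535-14291372), the smooth muscle myosin heavy chain, was at 322, 427 and 624 CPM in PDGFRα hi FB and 19.5, 27.6 and 38.8 CPM in CD90+ FB (−4.03 ± 0.33), and *Mylk* (chr16:34745210-35002420), the kinase that switches this myosin on, was at 1124, 1114 and 1447 CPM in PDGFRα hi FB and 83.5, 144 and 124 CPM in CD90+ FB (−3.43 ± 0.24). In all of them the PDGFRα hi FB replicate 3 was the highest library and the CD90+ FB libraries stayed low. *Myl9* (chr2:156775420-156781658), a regulatory light chain, was at 298, 289 and 369.5 CPM in PDGFRα hi FB and 27.3, 27.6 and 22.6 CPM in CD90+ FB (−3.66 ± 0.21). *Synpo2* (chr3:123076519-123236149), an actin bundler, was at 372, 285 and 368 CPM in PDGFRα hi FB and 34.1, 56.1 and 41.6 CPM in CD90+ FB (−2.99 ± 0.24), and *Tpm2* (chr4:43514711-43523765), a tropomyosin, at 605, 459.8 and 558 CPM in PDGFRα hi FB and 183, 138 and 75.2 CPM in CD90+ FB (−2.07 ± 0.28). *Tagln* (chr9:45929619-45936058) was at 139, 144 and 213 CPM in PDGFRα hi FB and 11.0, 15.2 and 19.2 CPM in CD90+ FB (−3.49 ± 0.30), but 62.2% of its 31-base words occur in other genes, so its reads cannot be placed with certainty.

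Against that direction, *Myocd* (chr11:65176561-65269989), the cofactor of SRF that turns on smooth muscle genes, was higher in CD90+ FB, at 28.6, 48.3 and 43.6 CPM in CD90+ FB and 3.06, 3.32 and 17.2 CPM in PDGFRα hi FB (2.32 ± 0.62; 1.93 to 3.61 without 1 library). That call was lost without CD90+ FB replicate 1 (2.54), replicate 2 (2.17), replicate 3 (2.26), PDGFRα hi FB replicate 1 (1.93) or replicate 2 (1.97), with length-scaled counts (2.71) and in the fit of all 15 colonic libraries. *Des* (chr1:75360329-75368579), the muscle intermediate filament, was at 10.4, 18.2 and 13.5 CPM in CD90+ FB and 4.90, 2.55 and 3.80 CPM in PDGFRα hi FB and was not called by edgeR (1.87), but was called by DESeq2 and in the fit of all 15 colonic libraries. The most abundant contractile gene was the actin-binding caldesmon *Cald1*, at 2429, 2169 and 3465 CPM in PDGFRα hi FB and 853, 1013 and 1052 CPM in CD90+ FB (−1.50 ± 0.20), and its fold fell under the threshold without CD90+ FB replicate 1 (−1.39) or PDGFRα hi FB replicate 3 (−1.28), in the fit of all 15 colonic libraries (−1.498), with upper-quartile scaling and with pairing of the replicates. The sum over 16 contractile genes was 2534, 2727 and 2435 CPM in CD90+ FB and 8869, 7997 and 11663 CPM in PDGFRα hi FB, compared with 28553 ± 1986 CPM (SD, n = 3) in colonic pericytes. *Myh11* averaged 457 ± 154 CPM in PDGFRα hi FB and 6990.3 ± 156 CPM in colonic pericytes, while the pericyte gene *Rgs5* averaged 53.3 ± 7.70 and 33481 ± 8481 CPM in the same populations. Both fibroblast gates took ESAM-1- cells, whereas the labels give pericytes and smooth muscle cells as ESAM-1+. The part of such cells in the contractile levels was not tested. Fewer cells of a type and less RNA per cell cannot be told apart in these bulk libraries.

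Contractile genes that move together often carry a CArG box, the DNA letters that SRF binds, so their promoters were searched for it. A CArG box starts with CC, ends with GG and holds 6 letters A or T in between, on either strand. Of the 9 contractile genes called higher in PDGFRα hi FB, 6 have a promoter of 300 bases in the RefSeq table for GRCm38.p6, from 250 bases before to 50 after the start of transcription, with 7 promoters in all. The box occurs in 1 of these 7 promoters (14.3%), that of *Myl9*, and in 535 of the 32851 promoters of all genes (1.63%). It is shown in capitals in the *Myl9* promoter (chr2:156775214-156775513, plus strand), where its first base lies 161 bases before the start. The *Acta2* promoter (chr19:34255324-34255623, minus strand) is shown for comparison. It has no full match but holds ccctatatgg and ccttgtttgg, each of which differs from the pattern in 1 letter. The *Myl9* promoter also holds such a near match, ccttgtaagg. Near matches were not counted in any promoter. The matches describe the sequence alone.
*Myl9* promoter: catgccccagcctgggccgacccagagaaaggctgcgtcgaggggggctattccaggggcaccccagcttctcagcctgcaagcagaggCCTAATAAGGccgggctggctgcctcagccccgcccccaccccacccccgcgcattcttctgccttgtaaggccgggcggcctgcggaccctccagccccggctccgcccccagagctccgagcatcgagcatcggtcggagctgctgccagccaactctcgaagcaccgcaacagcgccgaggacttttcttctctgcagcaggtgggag
*Acta2* promoter: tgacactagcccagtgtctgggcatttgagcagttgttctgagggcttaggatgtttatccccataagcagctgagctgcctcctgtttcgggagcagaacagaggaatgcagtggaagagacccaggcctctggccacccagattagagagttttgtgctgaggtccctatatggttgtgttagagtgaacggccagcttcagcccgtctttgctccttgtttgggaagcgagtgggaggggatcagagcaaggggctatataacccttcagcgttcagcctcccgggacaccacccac

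Elastic fiber genes leaned to CD90+ FB. Of 18 tested, 8 were higher in CD90+ FB and 3 in PDGFRα hi FB (2 with upper-quartile scaling or DESeq2; median 0.94). *Eln*, the elastin core of the fiber, was at 2716, 1362 and 1796 CPM in CD90+ FB and 41.3, 15.1 and 73.6 CPM in PDGFRα hi FB (5.46 ± 0.51, adjusted p = 3.4e-05; 5.07 to 6.08 without 1 library). *Mfap5*, a microfibril protein, was at 411, 385 and 398 CPM in CD90+ FB and 6.98, 9.57 and 5.97 CPM in PDGFRα hi FB (5.69 ± 0.25), and *Fbn1*, the fibrillin scaffold, at 7296, 4076 and 4066 CPM in CD90+ FB and 1766, 1203 and 1771 CPM in PDGFRα hi FB (1.66 ± 0.25). For *Eln* and *Mfap5* the populations lay more than an order of magnitude apart, while *Fbn1* was abundant in both. Without CD90+ FB replicate 1 (1.35) the fold of *Fbn1* fell under the threshold. *Mfap4* was at 1183, 1054 and 1209 CPM in CD90+ FB and 149, 180.0 and 223 CPM in PDGFRα hi FB (2.61 ± 0.20). Of the fibulins, which tie elastin to its surroundings, *Fbln1* was at 1321, 1835 and 1235 CPM in CD90+ FB and 249, 367 and 325 CPM in PDGFRα hi FB (2.18 ± 0.22) and *Fbln2* at 611, 633 and 309 CPM in CD90+ FB and 116, 63.5 and 86.3 CPM in PDGFRα hi FB (2.51 ± 0.30).

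Collagens as a whole were not tilted: of 39 genes tested, 4 were higher in CD90+ FB and 5 in PDGFRα hi FB (median −0.22). *Col1a1* and *Col3a1*, the main fibrillar chains, were at 0.44 and 0.49 and were not called. *Col1a1* was at 9369, 7949 and 11993 CPM in CD90+ FB and 7326, 4754 and 9059 CPM in PDGFRα hi FB, so the libraries of the populations overlapped. *Col14a1*, which sits on fibrils, was at 1007, 1271 and 897 CPM in CD90+ FB and 33.7, 25.5 and 33.1 CPM in PDGFRα hi FB (5.07 ± 0.23, adjusted p = 3.0e-07). *Col15a1*, which links fibrils to basement membranes, was at 1786, 1583 and 2103 CPM in CD90+ FB and 240.5, 199 and 234 CPM in PDGFRα hi FB (2.98 ± 0.19). *Col8a1*, a short-chain network collagen, was at 842, 584 and 636 CPM in CD90+ FB and 6.12, 5.61 and 10.4 CPM in PDGFRα hi FB (6.50 ± 0.30). These chains of the CD90+ FB were all strong there and, in the case of *Col8a1* and *Col14a1*, under 34 CPM in the PDGFRα hi FB.

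Over the basement membrane list, 3 of 27 genes tested were higher in PDGFRα hi FB and 1 in CD90+ FB (median −0.13). *Col4a5* and *Col4a6*, neighbors on the X chromosome that form a type IV collagen network of their own, were at 766, 448 and 877 CPM in PDGFRα hi FB and 109, 77.7 and 94.3 CPM in CD90+ FB and at 249.9, 347 and 291 CPM in PDGFRα hi FB and 43.5, 51.0 and 33.2 CPM in CD90+ FB (−2.93 ± 0.26 and −2.84 ± 0.23). *Lama5*, the laminin chain that epithelial integrins bind, was at 115, 137 and 189 CPM in PDGFRα hi FB and 20.8, 6.59 and 12.2 CPM in CD90+ FB (−3.51 ± 0.39). *Col6a4*, a type VI chain, was at 117, 112 and 156 CPM in PDGFRα hi FB and 9.50, 7.01 and 11.6 CPM in CD90+ FB (−3.81 ± 0.29). None of these overlapped between the populations, though *Col4a5* was uneven within the PDGFRα hi FB and its call ended in the fit of all 15 colonic libraries.

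Small proteoglycans and matricellular proteins, which tune fibrils and growth factors, were also divided. Of 12 small leucine-rich proteoglycans tested, 1 was higher in CD90+ FB and 3 in PDGFRα hi FB (median 0.14). *Dcn*, decorin, was among the most abundant called genes, at 4833, 7497 and 6912 CPM in CD90+ FB and 1296, 1121 and 1429 CPM in PDGFRα hi FB (2.29 ± 0.20). *Ogn*, osteoglycin, took the other side at 1182, 1379 and 1518 CPM in PDGFRα hi FB and 285, 353 and 538 CPM in CD90+ FB (−1.83 ± 0.24), and its call ended in the fit of all 15 colonic libraries. Among 14 matricellular genes tested, 3 were higher in CD90+ FB and 2 in PDGFRα hi FB (median −0.03). *Ccn2*, connective tissue growth factor, was at 511, 529 and 452 CPM in CD90+ FB and 62.9, 33.3 and 60 CPM in PDGFRα hi FB (3.22 ± 0.25), and *Tnxb*, a tenascin of elastic connective tissue, at 1763, 1583 and 1050.0 CPM in CD90+ FB and 337, 289.6 and 264 CPM in PDGFRα hi FB (2.26 ± 0.22). Both were higher in each CD90+ FB library than in any PDGFRα hi FB library.

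Of 25 matrix proteases and inhibitors tested, 3 were higher in CD90+ FB and 2 in PDGFRα hi FB (median 0.19). *Plau*, urokinase, which activates plasmin, was at 133, 168 and 104 CPM in PDGFRα hi FB and 1.04, 4.17 and 3.69 CPM in CD90+ FB (−5.56 ± 0.48). *Timp3*, a matrix-bound inhibitor of metalloproteases, was at 1864, 1679.8 and 1399 CPM in CD90+ FB and 450.0, 509 and 407 CPM in PDGFRα hi FB (1.81 ± 0.18), and *Adamts2*, which trims procollagen, at 683, 578 and 572 CPM in CD90+ FB and 146, 109 and 134 CPM in PDGFRα hi FB (2.19 ± 0.19). Among the most abundant called genes, *Gsn*, the actin-severing gelsolin, was at 2353, 3571 and 2156 CPM in CD90+ FB and 244, 216 and 209 CPM in PDGFRα hi FB (3.56 ± 0.23), and the adhesion protein *Svep1* at 2346, 2293 and 2187 CPM in CD90+ FB and 656, 603 and 612 CPM in PDGFRα hi FB (1.83 ± 0.15). On the other side, *Thbd*, the thrombin receptor thrombomodulin, was at 2696, 2738 and 3109.9 CPM in PDGFRα hi FB and 849, 920.1 and 1090.0 CPM in CD90+ FB (−1.62 ± 0.17), and the shedding protease *Adam19* at 2243, 1839 and 2313 CPM in PDGFRα hi FB and 691, 722 and 739.8 CPM in CD90+ FB (−1.61 ± 0.16). The libraries of these 4 genes did not overlap between the populations.

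Complement genes were called in 1 direction. Of 18 tested, 4 were called, each higher in CD90+ FB (median 0.52). *C3*, the hub of the cascade, was at 586, 1592 and 703 CPM in CD90+ FB and 29.6, 56.5 and 76.1 CPM in PDGFRα hi FB (4.11 ± 0.44), and *C4b*, which feeds the classical pathway, at 423, 950.4 and 369.9 CPM in CD90+ FB and 26.4, 85.1 and 48.2 CPM in PDGFRα hi FB (3.41 ± 0.45). For both genes CD90+ FB replicate 2 was the highest library. *Cd55*, the membrane-bound decay accelerator, was even at 1203, 1276 and 1134 CPM in CD90+ FB and 30.2, 20.5 and 13.0 CPM in PDGFRα hi FB (5.78 ± 0.31, adjusted p = 6.7e-07).

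Of 18 chemokines tested, 2 were higher in CD90+ FB and 1 in PDGFRα hi FB (4 and 1 by DESeq2, 3 and 1 with upper-quartile scaling or thinned libraries; median 0.77). *Ccl11*, eotaxin, which draws eosinophils, was at 174, 460.1 and 310.0 CPM in CD90+ FB and 6.98, 21.2 and 15.3 CPM in PDGFRα hi FB (4.40 ± 0.45). *Cxcl14*, a constitutive chemokine of epithelial borders, was at 85.5, 128 and 64.6 CPM in PDGFRα hi FB and 5.44, 12.1 and 7.63 CPM in CD90+ FB (−3.51 ± 0.39). *Cxcl12*, the ligand of CXCR4, was at 1172, 1611 and 1291 CPM in PDGFRα hi FB and 479, 665 and 605 CPM in CD90+ FB and was not called (−1.26). The populations of *Ccl11* and *Cxcl14* were far apart, and those of *Cxcl12* were separate but under the fold threshold. Of 17 cytokine genes tested, 3 were higher in CD90+ FB and 2 in PDGFRα hi FB (median 0.18). *Tnfsf13b*, the B cell survival factor BAFF, was at 207, 183 and 140.5 CPM in CD90+ FB and 10.7, 19.9 and 14.4 CPM in PDGFRα hi FB (3.52 ± 0.29), and the alarmin *Il33* at 12.8, 47.0 and 31.3 CPM in CD90+ FB and 0.612, 0.893 and 0.136 CPM in PDGFRα hi FB (5.72 ± 0.74). *Il6* was called at 4.82, 2.12 and 13.4 CPM in CD90+ FB and 0, 0.128 and 0 CPM in PDGFRα hi FB, a single count in the latter, and without any 1 of the CD90+ FB libraries it was under the filter on low counts.

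On the PDGFRα hi FB side were *Il34*, a ligand of the macrophage receptor CSF1R, at 41.8, 15.7 and 31.1 CPM in PDGFRα hi FB and 4.49, 7.01 and 2.29 CPM in CD90+ FB (−2.72 ± 0.54), and *Il1rl1*, the receptor of IL-33, at 55.8, 18.4 and 37.9 CPM in PDGFRα hi FB and 2.60, 3.57 and 3.75 CPM in CD90+ FB (−3.53 ± 0.49). Ligand and receptor of the IL-33 pair were therefore higher in opposite populations. The call of *Il34* ended without PDGFRα hi FB replicate 1 (−2.38), and that of *Il1rl1* in the fit of all 15 colonic libraries.

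Retinoic acid, made from vitamin A and known to imprint gut-homing immune cells, is produced by aldehyde dehydrogenases, and these differed in direction. *Aldh1a1* was at 601, 548 and 645 CPM in PDGFRα hi FB and 30.6, 40.1 and 35.0 CPM in CD90+ FB (−4.12 ± 0.20, adjusted p = 4.7e-07), and *Aldh1a3* at 75.1, 152 and 50.4 CPM in CD90+ FB and 11.8, 19.9 and 15.7 CPM in PDGFRα hi FB (2.51 ± 0.41). *Adh1*, which can take retinol through the preceding step, was at 79.0, 126 and 53.5 CPM in CD90+ FB and 0.367, 0.510 and 3.66 CPM in PDGFRα hi FB (5.81 ± 0.71; 5.34 to 7.55 without 1 library). *Rbp4*, the plasma carrier of retinol, was at 97.0, 67.6 and 151 CPM in PDGFRα hi FB and 23.8, 34.7 and 16.2 CPM in CD90+ FB (−2.12 ± 0.36; not called in the fit of all 15 colonic libraries). The libraries of all 4 genes kept to their side. *Aldh1a2* was at 219, 194 and 121 CPM in CD90+ FB and 211, 205 and 201 CPM in PDGFRα hi FB and was not called (−0.25). Per length, it was the leading aldehyde dehydrogenase of these 3 in CD90+ FB at 161 ± 54.4 TPM, above *Aldh1a3* at 77.0 ± 39.7 TPM, while *Aldh1a1* led in PDGFRα hi FB at 634 ± 54.5 TPM (mean ± SD, n = 3). Over 14 retinoic acid genes tested, 3 were called in each direction (median −0.12).

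Of 14 prostaglandin genes tested, 3 were called in each direction (median −0.28; 2 and 3 of 13 with thinned libraries). *Ptgs1* and *Ptgs2*, the cyclooxygenases, were at 298, 281 and 413 CPM in PDGFRα hi FB and 38.5, 64.5 and 36.7 CPM in CD90+ FB and at 198, 197 and 216 CPM in PDGFRα hi FB and 63.8, 39.0 and 89.3 CPM in CD90+ FB (−2.86 ± 0.27 and −1.71 ± 0.28). *Ptgis*, prostacyclin synthase, was at 19.2, 38.4 and 28 CPM in PDGFRα hi FB and 3.69, 6.16 and 5.28 CPM in CD90+ FB (−2.54 ± 0.45). These 3 synthesis genes were higher in all PDGFRα hi FB libraries. The receptors *Ptger3*, *Ptgfr* and *Ptgir* were called higher in CD90+ FB, at 2.74, 0.665 and 8.65 CPM in CD90+ FB and 0, 0 and 0.136 CPM in PDGFRα hi FB, 1.37, 6.59 and 5.47 CPM in CD90+ FB and 0.122, 0.255 and 0 CPM in PDGFRα hi FB, and 7.14, 0.907 and 14.9 CPM in CD90+ FB and 0.122, 0 and 0.543 CPM in PDGFRα hi FB. All 3 were low and uneven in CD90+ FB, with no more than 4 counts in any PDGFRα hi FB library, and their calls ended in the fit of all 15 colonic libraries. Leaving out 1 library ended the call of *Ptger3* in all 6 fits and those of *Ptgfr* and *Ptgir* in 5 each. Length-scaled counts ended those of *Ptger3* and *Ptgir*, and thinned libraries that of *Ptgir*. Without CD90+ FB replicate 2 (−1.44) the fold of *Ptgs2* fell under the threshold, and *Ptgs2* and *Ptgis* were not called in the fit of all 15 colonic libraries. Of 12 lipid and adipogenic genes tested, 3 were called, each higher in CD90+ FB (median 0.25). *Lepr*, the leptin receptor, was at 553, 722 and 729 CPM in CD90+ FB and 44.1, 14.7 and 44.2 CPM in PDGFRα hi FB (4.25 ± 0.38), a wide gap. Of 17 cholesterol synthesis genes tested, 2 were called, both higher in PDGFRα hi FB (median −0.97).

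Transcription factors were called in both directions, 6 of 37 tested higher in CD90+ FB and 7 higher in PDGFRα hi FB (median 0.54). *Osr1*, a factor of lateral plate mesoderm, was at 440.4, 289 and 214 CPM in CD90+ FB and 22.9, 18.5 and 14.2 CPM in PDGFRα hi FB (4.04 ± 0.31). *Zeb2*, a repressor of epithelial genes, was at 2016, 2174 and 2532 CPM in CD90+ FB and 357, 347 and 415 CPM in PDGFRα hi FB (2.55 ± 0.18). *Klf4*, an early-response Krüppel-like factor, was at 339.7, 264 and 181 CPM in CD90+ FB and 57.4, 20.4 and 47.0 CPM in PDGFRα hi FB (2.61 ± 0.36). All 3 were higher in every CD90+ FB library, *Zeb2* the most abundant of them in CPM. On the other side, the RUNT factor *Runx1* was at 164, 197 and 196 CPM in PDGFRα hi FB and 18.9, 40.7 and 31.5 CPM in CD90+ FB (−2.65 ± 0.29), and the T-box repressor *Tbx3* at 142, 228 and 222 CPM in PDGFRα hi FB and 34.5, 31.1 and 42.7 CPM in CD90+ FB (−2.49 ± 0.25), both without overlap. Of 25 Hox genes tested, which mark position along the gut, 1 was called (4%, median 0.00), near the 4.84% of all genes tested. The called gene was *Hoxd13*, at 46.8, 44.3 and 42.1 CPM in CD90+ FB and 4.90, 13.4 and 12.6 CPM in PDGFRα hi FB (2.07 ± 0.41). The calls of *Tbx3* and *Hoxd13* ended in the fit of all 15 colonic libraries.

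Genes that answer to dissociation and stress were read beside these results. Of 15 immediate early genes tested, 0 were called by edgeR, 7 had an unadjusted p under 0.05 and DESeq2 called 1, while 14 values were positive (median 0.70). Their sum, led by *Egr1*, was 2493, 3404 and 4589 CPM in CD90+ FB and 1567, 1771 and 2350.2 CPM in PDGFRα hi FB, and *Egr1* was at 1266, 1754 and 2446 CPM in CD90+ FB and 682, 676 and 945 CPM in PDGFRα hi FB (1.21, not called). Each CD90+ FB library lay above each PDGFRα hi FB library in this sum, and its part in the calls was not tested. Of 9 heat shock genes tested 0 were called by edgeR, with 2 at an unadjusted p under 0.05 and 1 called by DESeq2. Of 12 MHC genes tested 0 were called by edgeR or DESeq2 (2 at an unadjusted p under 0.05, median −0.41). Of 18 interferon response genes 1 was called (5.56%, median −0.43), higher in CD90+ FB, a share near the 4.84% of all genes tested. The share of mitochondrial counts was 1.92%, 3.11% and 3.43% in CD90+ FB and 2.51%, 2.33% and 2.95% in PDGFRα hi FB, so these overlapped. Among 12 cell cycle genes tested, of which DESeq2 called 3 higher in PDGFRα hi FB and edgeR 1, *Mki67*, a marker of dividing cells, was called at 76.8, 16.1 and 165 CPM in PDGFRα hi FB and 4.63, 0.242 and 12.7 CPM in CD90+ FB (−3.91 ± 1.01, −5.14 to −3.03 without 1 library; list median −0.70). It varied widely among the PDGFRα hi FB libraries, and its call ended without CD90+ FB replicate 1 (−3.74), PDGFRα hi FB replicate 1 (−3.98) or replicate 3 (−3.03), with length-scaled counts (−2.70) and in the fit of all 15 colonic libraries.

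The steepest called genes were at or near 0 in the other population. *Flrt2* (chr12:95692226-95785215), an adhesion protein that binds UNC5 receptors, was at 51.2, 56.9 and 57.7 CPM in CD90+ FB and 0.245, 0.383 and 0.136 CPM in PDGFRα hi FB, the latter no more than 3 counts in a library. The membrane proteins *Plppr5* and *Cntn6*, known from neurons, were at 18.2, 7.31 and 18.4 CPM in CD90+ FB and 0, 0 and 0.136 CPM in PDGFRα hi FB, and at 15.6, 10.8 and 16.8 CPM in CD90+ FB and 0, 0 and 0.136 CPM in PDGFRα hi FB, a single count each in PDGFRα hi FB. *Ugt1a5*, a glucuronosyltransferase, was at 27.1, 16.3 and 46.5 CPM in CD90+ FB and 0 in every PDGFRα hi FB library, at least 77.7-fold higher with a floor of 3 counts per library, but 65.3% of its 31-base words occur in other genes. Such genes pass the filter on low counts only by reads in all 3 libraries of 1 population. In the other direction, *Cps1* (chr1:67123026-67231259), the first enzyme of the urea cycle, was at 18.0, 6.12 and 11.9 CPM in PDGFRα hi FB and 0 in CD90+ FB, at least 70.2-fold higher. *Cacna2d3*, a calcium channel subunit, was at 11.1, 10.2 and 4.75 CPM in PDGFRα hi FB and 0, 0 and 0 CPM in CD90+ FB (at least 50.8-fold higher), and the protease *Adamts18* at 5.02, 13.3 and 9.77 CPM in PDGFRα hi FB and 0, 0 and 0 CPM in CD90+ FB (at least 54.6-fold higher). *Gm45713*, at 9.18, 34.8 and 15.1 CPM in PDGFRα hi FB and at least 115-fold higher there, shares 98.1% of its 31-base words with other genes and cannot be placed. *Cntn6*, *Adamts18* and *Gm45713* were not called in the fit of all 15 colonic libraries, and each of these 8 genes, without any 1 library of its higher population, was under the filter on low counts.

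Called genes were set against the other colonic populations, which share no library with the comparison. The mean level in Fgfr2+ FB lay nearer to that of CD90+ FB than to that of PDGFRα hi FB for 89.3% of the 345 genes higher in CD90+ FB and 88.8% of the 385 higher in PDGFRα hi FB, against 57.2% of all genes tested. For CD81+ FB the shares were 77.7% and 91.4%, against 57.6% of all genes. Of the genes higher in PDGFRα hi FB, 291 of 385 (75.6%) had their highest colonic mean in PDGFRα hi FB and 84 in pericytes (21.8%), against 19.5% and 26.5% of all genes tested. Of the genes higher in CD90+ FB, 113 of 345 (32.8%) had their highest mean in CD90+ FB, 142 (41.2%) in CD81+ FB, 52 (15.1%) in pericytes and 38 (11%) in Fgfr2+ FB. The shares of all genes tested were 17.2%, 21.6%, 26.5% and 15.2% in the same order. Genes picked for a wide gap between the populations differ from all genes in these shares partly by that choice. These are counts of means over 3 libraries and carry no test.

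**Figure D2:**
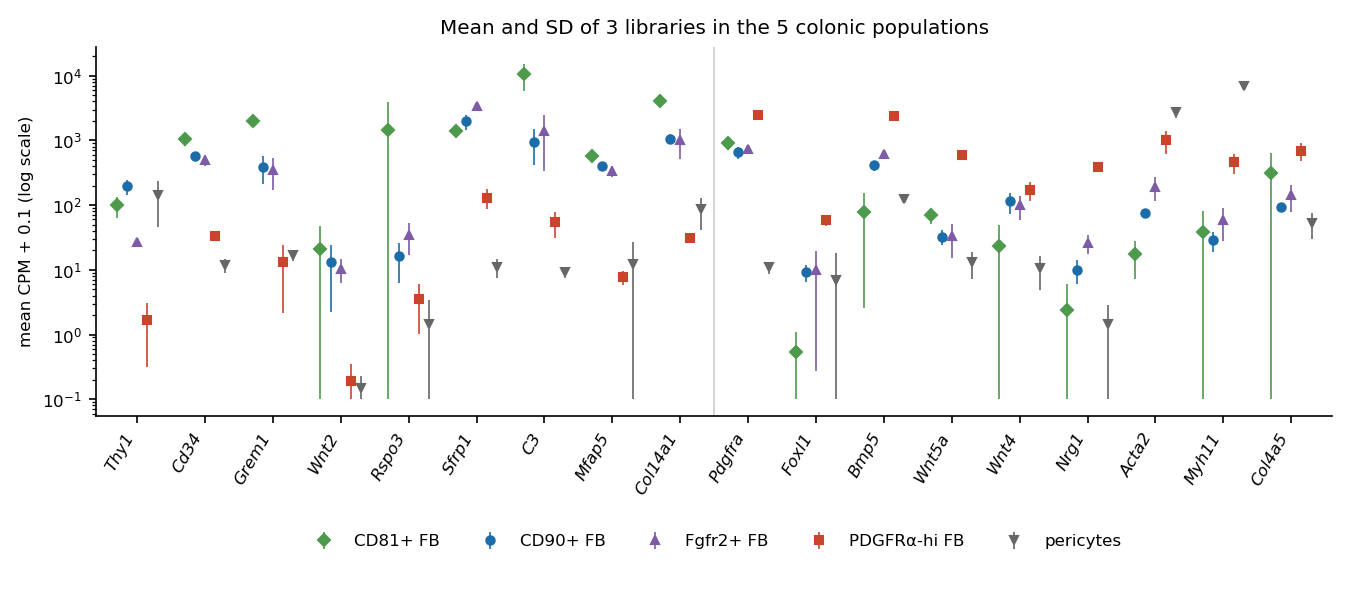
Mean level of 18 genes in the 5 colonic populations, as CPM with 0.1 added on a log axis; points are means and bars the SD of 3 libraries. *Grem1*, *C3* and *Col14a1* are highest in CD81+ FB, *Bmp5*, *Wnt5a* and *Nrg1* in PDGFRα hi FB, and *Acta2* and *Myh11* in pericytes.

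Single genes differed in their order among the colonic populations. *Grem1* averaged 1978 ± 243 CPM in CD81+ FB, 393 ± 181 in CD90+ FB, 353 ± 183 in Fgfr2+ FB and 13.0 ± 11.0 in PDGFRα hi FB (mean ± SD, n = 3). The CD81+ FB were highest, and the CD90+ FB and Fgfr2+ FB overlapped within 1 SD. *C3* averaged 10567 ± 4730.2 CPM in CD81+ FB, 960.3 ± 550.2 in CD90+ FB and 1380.3 ± 1049 in Fgfr2+ FB, again with overlap between the last of these. *Thy1* was instead highest in CD90+ FB, at 196 ± 51.2 CPM, with 142 ± 96.9 in pericytes, 98.7 ± 35.0 in CD81+ FB and 26.6 ± 2.55 in Fgfr2+ FB. *Nrg1* averaged 391 ± 59.5 CPM in PDGFRα hi FB and no more than 26.2 ± 8.68 in any other colonic population. *Cd55* reached 1724 ± 414 CPM in CD81+ FB, 1204 ± 71.2 in CD90+ FB and 597 ± 50.6 in Fgfr2+ FB.

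The small intestine asks whether the same contrast holds where PDGFRα was part of the gate. Between small intestinal CD34+ FB and PDGFRα hi FB, 1285 of 16339 genes were called (7.86%), 780 higher in CD34+ FB (4.77%) and 505 higher in PDGFRα hi FB (3.09%). The small intestinal calls came from a model of 12 libraries that included the colonic ones, and the 730 colonic calls from the model of 6 libraries. Counts that set them side by side are thus from unlike fits. Of the 730 colonic calls, 461 were called in the same direction in the small intestine, 235 toward CD34+ FB and 226 toward PDGFRα hi FB, which is 63.15% of the colonic list and 38.58% of the 1195 small intestinal calls tested in the colon. *Nrg1* was among them at −5.21 in the small intestine, *Wnt5a* at −4.10, *Eln* at 4.85, *Col14a1* at 4.41 and *Myh11* at −5.09, beside colonic log2 fold changes of −5.34, −4.23, 5.46, 5.07 and −4.03. The gates differ between the tissues, and tissue and gate cannot be told apart.

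A test of the difference between the contrasts, here called the interaction, called 324 of 16339 genes (1.98%), 99 positive (0.606%) and 225 negative (1.38%), and 124 of the 730 colonic calls were among them. DESeq2 called 592 genes by the same test, and without small intestinal CD34+ FB replicate 1 edgeR called 212. *Bmp2* was called in the colon and was at 109, 96.4 and 111 CPM in CD34+ FB and 192, 145 and 210.3 CPM in PDGFRα hi FB of the small intestine (−0.79, interaction −2.74 ± 0.29). *Wnt4*, uncalled in the colon, was at 8.48, 11.2 and 11.6 CPM in CD34+ FB and 213, 308 and 138 CPM in PDGFRα hi FB of the small intestine (−4.38, interaction 3.76 ± 0.48). The *Bmp2* difference was thus larger in the colon and the *Wnt4* difference larger in the small intestine. *Fgf7* was at 68.1, 38.5 and 21.7 CPM in CD34+ FB and 0.803, 0.282 and 0.689 CPM in PDGFRα hi FB of the small intestine (interaction −7.23 ± 0.61). *Col3a1* was at 26020.3, 9080.0 and 18223 CPM and 1494, 1694 and 1530.2 CPM in the same order (interaction −3.01 ± 0.43). For both genes the small intestinal libraries of the populations were far apart where the colonic values were not called.

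Of all genes called in both tissues, 11 were called in opposite directions, and the interaction was called for each of them. *Ccl11*, higher in colonic CD90+ FB, was at 322, 391 and 274 CPM in CD34+ FB and 1227, 1072 and 832 CPM in PDGFRα hi FB of the small intestine (−1.66). *Dkk2* was at 307, 229.8 and 183 CPM and 9.11, 21.9 and 16.4 CPM in the same order (3.92), and *Rspo1* at 14, 25.0 and 11.6 CPM and 1.61, 0.846 and 0.574 CPM (4.08). The direction seen in the colon was therefore turned in each small intestinal library. *Piezo2* (chr18:63010213-63387183), a channel that senses touch and stretch, was at 63.2, 26.0 and 74.4 CPM in PDGFRα hi FB and 11.6, 10.2 and 14.3 CPM in CD90+ FB in the colon and at 267, 198 and 224 CPM in CD34+ FB and 5.76, 3.67 and 2.07 CPM in PDGFRα hi FB of the small intestine (−2.21 and 5.92).

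The other 7 genes with opposite calls were, in the colon, as follows. *Rgs2*, a regulator of G protein signals, was at 209, 207 and 212 CPM in PDGFRα hi FB and 34.5, 46.7 and 81.0 CPM in CD90+ FB (−1.99; small intestine 2.24). *Ctnnal1*, a relative of α-catenin, was at 25.6, 27.8 and 16.1 CPM in PDGFRα hi FB and 4.40, 3.69 and 1.02 CPM in CD90+ FB (−2.97; small intestine 2.16). *Ccdc3*, a secreted protein, was at 684, 573 and 1031 CPM in PDGFRα hi FB and 59.6, 110.0 and 112 CPM in CD90+ FB (−3.06; small intestine 2.1), and 67.5% of its 31-base words occur in other genes. These 3 genes were higher in colonic PDGFRα hi FB without overlap. *Kctd15* was at 30, 19.8 and 28.6 CPM in PDGFRα hi FB and 9.03, 7.01 and 5.98 CPM in CD90+ FB (−1.87; small intestine 2.11), and *Plekhg5* at 17.5, 14.7 and 6.51 CPM in PDGFRα hi FB and 1.37, 1.39 and 2.16 CPM in CD90+ FB (−3.01; small intestine 2.37). The transporter *Abcb1b* was at 4.65, 3.57 and 8.96 CPM in PDGFRα hi FB and 0.615, 0.242 and 0.826 CPM in CD90+ FB (−3.36; small intestine 2.99). The kinase *Syk* was at 12.5, 16.6 and 13.4 CPM in CD90+ FB and 3.55, 0.255 and 1.63 CPM in PDGFRα hi FB (2.92, 2.42 to 3.87 without 1 library; small intestine −2.56), the 1 gene of the 7 that was higher in colonic CD90+ FB.

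Several of these calls ended with 1 library fewer. The colonic call of *Syk* was lost without CD90+ FB replicate 1 (3.03), replicate 2 (2.80), replicate 3 (2.96) or PDGFRα hi FB replicate 3 (2.85). For *Kctd15* it was lost without CD90+ FB replicate 2 (−1.83), replicate 3 (−1.74), PDGFRα hi FB replicate 1 (−1.76) or replicate 3 (−1.80), and for *Plekhg5* without CD90+ FB replicate 1 (−2.87), replicate 2 (−2.90) or PDGFRα hi FB replicate 1 (−2.73). *Abcb1b* lost its call without CD90+ FB replicate 1 (−3.41), replicate 2 (−3.0), replicate 3 (−3.73), PDGFRα hi FB replicate 1 (−3.50) or replicate 3 (−2.90), with pairing of the replicates and with length-scaled counts. *Dkk2* and *Rspo1* have the losses given with the Wnt genes, and the call of *Piezo2* ended with length-scaled counts (−1.74). In the fit of all 15 colonic libraries, *Ccl11* and *Ccdc3* kept their colonic calls and the other 9 did not.

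**Figure D3:**
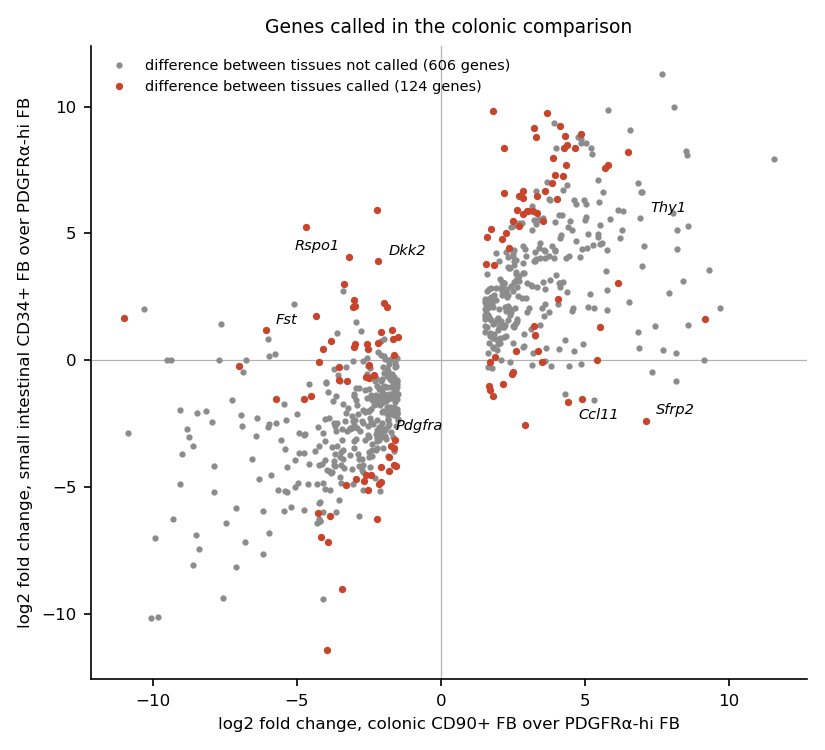
Log2 fold change of the 730 genes called in the colon, CD90+ FB over PDGFRα hi FB on the horizontal axis, against the log2 fold change of small intestinal CD34+ FB over PDGFRα hi FB on the vertical axis; each point is a gene. Red points are the 124 genes for which the difference between the tissues was called and gray points the others; *Ccl11*, *Dkk2* and *Rspo1* lie on the opposite side of 0 in the small intestine.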

How the data were processed

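The authors trimmed the reads with Trim Galore 0.4.0, checked them with FastQC 0.11.2 and quantified transcripts with kallisto 0.42.5. The deposited abundance files give, per transcript, an expected count (the column of estimated counts) and, as the authors' second unit, TPM. Lengths and effective lengths in the deposited files have another unit ("other": bases). Total counts per library are given with the results.

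Estimated counts were summed to genes with GENCODE M21 (97116 of 98492 transcripts matched, giving 32342 genes) and rounded. Groups came from the sample labels. Colonic CD90+ FB were compared with colonic PDGFRα hi FB (6 libraries in the model). The comparison of small intestinal CD34+ FB with small intestinal PDGFRα hi FB, and the difference between these contrasts, came from 1 model of 12 libraries. A gene needed 6 counts or more in 3 or more libraries of the model, and was tested with edgeR 4.0.16 (TMM scaling, quasi-likelihood F test) in R 4.3.3. Calls took a p under 0.05 after Benjamini-Hochberg adjustment together with a log2 fold change beyond 1.5 in size. CPM were scaled by TMM over the 30 libraries. TPM were summed to genes and rescaled over the matched transcripts of each library, so they exceed the deposited values. In the 6 colonic libraries compared, the largest unmatched transcript held 27.8% to 42.47% of the deposited TPM. Called genes with at least 50% of their 31-base words in other genes are named as uncertain. That share was worked out only for genes tested in the colon. A population was taken as at the floor at 3 counts or fewer in each library.

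Genes named are the members of lists written from general knowledge, the 10 steepest called genes in each direction at a mean of at least 5 CPM, the 5 most abundant called genes in each direction, and called interaction genes by fold. From these the text names a choice made after their values were seen, and the members of the comparison and the lists were chosen with earlier results of these data known. A few genes are not reported here and were left out of the lists. Promoters came from RefSeq for GRCm38.p6.

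Other settings run were upper-quartile and RLE scaling, DESeq2 1.42.0, no filter and a stricter filter on low counts, length-scaled counts, a replicate block, models with 15 or 30 libraries, thinned CD90+ FB libraries, other fold thresholds, single transcripts, and leaving out each library. The tests were also run on simulated counts with the same spread for every gene, and no call rests on that run. Tables and plots used Python 3.11.15 with pandas 2.3.3, numpy 2.4.6 and matplotlib 3.10.9.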

Additional observations from a re-analysis of the deposited data

Results flagged for a closer look

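The genes below are those named above, and those with the largest values at a mean of at least 5 CPM, for which the contrast in the colon differed from that in the small intestine by the interaction test. A value is the colonic log2 fold change (CD90+ FB over PDGFRα hi FB) less the small intestinal one (CD34+ FB over PDGFRα hi FB). The gates differ between the tissues, and no explanation was tested. The call was kept without each of the 12 libraries in turn unless said.

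Among surface and marker genes the values were 1.63 for *Cd34*, −2.83 for *Ncam1*, −2.58 for *Rgs5*, −6.78 for *Ano1* and −6.15 for *Cd81*. The call of *Cd34* ended without small intestinal PDGFRα hi FB replicate 3 (1.35). Among BMP genes they were −4.04 for *Grem1*, −2.74 for *Bmp2*, 1.72 for *Bmp3*, 1.94 for *Bmp5*, 1.71 for *Bmp6*, 2.28 for *Bmp7* and −7.26 for *Fst*. The call of *Bmp6* was kept in 2 of the 12 fits without 1 library. Among Wnt genes they were −2.77 for *Wnt2b*, 3.76 for *Wnt4*, −7.28 for *Rspo1*, −4.10 for *Sfrp1*, 9.47 for *Sfrp2*, −6.12 for *Dkk2* and −2.99 for *Lef1*.

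Among growth factors and guidance genes the values were −2.03 for *Ereg*, −7.23 for *Fgf7*, −2.05 for *Slit3* and 2.11 for *Efnb2*. The call of *Efnb2* ended without colonic CD90+ FB replicate 1 (1.84), colonic PDGFRα hi FB replicate 1 (2.14), replicate 2 (1.91) or small intestinal PDGFRα hi FB replicate 1 (1.96). Among contractile and matrix genes they were 3.09 for *Des*, −1.91 for *Mfap5*, −6.17 for *Fbln1*, −2.99 for *Fbln2*, −2.03 for *Col1a1*, −3.01 for *Col3a1*, 1.74 for *Col4a5*, −4.56 for *Col6a4*, −1.71 for *Col8a1* and 1.86 for *Ccn2*. The call of *Des* ended without small intestinal CD34+ FB replicate 1 (3.1), replicate 2 (3.17), replicate 3 (3.07) or small intestinal PDGFRα hi FB replicate 1 (2.86), and that of *Col1a1* without colonic CD90+ FB replicate 1 (−1.99), replicate 2 (−1.91) or colonic PDGFRα hi FB replicate 3 (−1.80). For *Col4a5* it ended without colonic CD90+ FB replicate 1 (1.63), small intestinal CD34+ FB replicate 2 (1.68) or replicate 3 (1.60), and for *Col8a1* it was kept in 3 of the 12 fits. Of the abundant or steep genes, the values were −1.94 for *Gsn*, −1.92 for *Svep1*, 1.51 for *Adam19* (kept in 6 of 12 fits) and −12.56 for *Gm45713*.

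Among immune and metabolic genes the values were −5.12 for *C3*, −1.91 for *Cd55*, 6.06 for *Ccl11*, 3.56 for *Tnfsf13b*, −3.28 for *Il1rl1* (kept in 7 of 12 fits) and 2.96 for *Aldh1a3*. The call of *Cd55* ended without small intestinal CD34+ FB replicate 2 (−1.80). For transcription factors they were −2.34 for *Osr1* and −1.81 for *Tbx3* (kept in 4 of 12 fits). Genes called in opposite directions had −6.35 for *Abcb1b*, −5.15 for *Ccdc3*, −5.13 for *Ctnnal1*, −3.98 for *Kctd15*, −8.14 for *Piezo2*, −5.39 for *Plekhg5*, −4.23 for *Rgs2* and 5.48 for *Syk*. Further positive values of genes chosen by the rule were 7.46 for *Smoc1*, 7.44 for *Unc13c*, 7.42 for *Gm15666* (kept in 2 of 12 fits) and 7.41 for *Colq* (kept in 3 of 12 fits). Further negative values were −11.48 for *Gm28661*, −11.13 for *Otulinl*, −10.34 for *Enox1* and −9.96 for *Pitx1*. *Gm28661*, annotated as a pseudogene, was not tested in the colon. Whether its 31-base words occur in other genes was not checked, so its reads may not be placed with certainty.

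*Gm45713* and *Gm15666* had no count in 1 of the colonic populations, and *Smoc1*, *Enox1* and *Pitx1* none in 1 of the small intestinal populations. *Unc13c*, *Colq*, *Gm28661* and *Otulinl* had 3 counts or fewer in each library of 1 population. For these 9 genes the value depends on how the fit treats counts at or near 0, and it is no measure of size. The values of *Sfrp2*, *Fst*, *Cd81* and *Fgf7* also rest on few counts, with 9 or fewer in each library of 1 population.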

How the results depend on the processing

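In the colon, 730 genes were called. With all 15 colonic libraries in 1 model 279 were called (163 higher in CD90+ FB and 116 in PDGFRα hi FB), with all 30 libraries 250 (139 and 111), on adjusted p without a fold threshold 1113 (509 and 604), and for single transcripts 272 (134 and 138). The common coefficient of biological variation was 0.495 in the 6 libraries and 0.7905 in the 15, and how far that accounts for the fewer calls was not tested. Without each library in turn 567 to 694 genes were called. Without CD90+ FB replicate 2, 220 were higher in CD90+ FB and 360 in PDGFRα hi FB. Without PDGFRα hi FB replicate 3, the counts were 343 and 300 in the same order. DESeq2 called 988, 722 of them among the 730, RLE scaling 730 (729 shared), upper-quartile scaling 727 (708), no filter 840 (715), a stricter filter 792 (717), length-scaled counts 628 (575) and thinned libraries 733 (706).

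In the small intestine, 1285 genes were called, and 997 to 1375 without each library in turn. The interaction was called for 324 genes, for 592 with DESeq2 (191 positive and 401 negative) and for 212 to 363 without each library in turn. The causes of these differences were not tested. With the replicate number as a block, 714 genes were called in the colon, 1230 in the small intestine and 332 for the interaction. Residuals of CD90+ FB and PDGFRα hi FB libraries with the same number had correlations of 0.012, 0.0091 and −0.0076.

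Of 147 genes followed under the alternatives, 125 were called, 77 of them under every alternative run on single genes. With the 15 colonic libraries 37 lost their call, and without 1 library 31 did, 16 of them by falling below the filter on low counts. *Pdpn*, not called at 0.06, ranged from −0.038 (without PDGFRα hi FB replicate 1) to 0.20 without 1 library.

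Depth sets the limit for weak genes: the CD90+ FB libraries hold 14456220 to 19096945 counts and the PDGFRα hi FB libraries 6865683 to 7248567, so the filter of 6 counts is met at a lower level in CD90+ FB. With 3 libraries per population, the spread of a single gene rests largely on that shared across genes.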
